A study of Mus musculus with 18 samples.

Results

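Among 27854 open chromatin regions of mouse lung endothelial cells (ECs), 310 carried a strong ATAC-seq peak mainly in uninjured young animals. These 310 regions (1.11%) were selected on the peak calls of all 18 mice. In each list the 21050 strongest nuclear peaks (chromosomes 1 to 19, X, Y) were kept and are called strong here, strength being the −log10 p of the peak caller, and peaks that overlapped by at least 1 bp were merged into regions seen in at least 2 mice. A region was taken when it held such a peak in at least 4 of the 5 Young Sham mice and in no more than 1 of 4 Young Bleo, 1 of 4 Aged Sham and 2 of 5 Aged Bleo mice. The calls that chose the regions are therefore given as a description, with no test.

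Each list came from the lung ECs of a single FVB mouse, 2 months old in Young Sham and Young Bleo and 18 months old in Aged Sham and Aged Bleo. Per the study's methods, the mice carried a Col1α1-GFP transgene, which marks collagen-producing cells, and received about 1 U/kg bleomycin (Bleo), a drug that injures the lung, or PBS (Sham) into the trachea. Cells were sorted 30 days later as CD31+ and negative for CD45, EpCAM and GFP, a gate that pools all kinds of lung ECs, so a weaker peak may mean less open chromatin per cell or fewer cells of an EC type, which cannot be told apart here. A code in the names of the lists places all Young Sham samples and Young Bleo 4 in lane 8, Young Bleo 1 to 3 and Aged Sham 1 to 3 in lane 7, and Aged Sham 4 with all Aged Bleo samples in lane 6. Young Sham and lane 8 thus cannot be told apart except through Young Bleo 4, whose values are given beside the others.

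ATAC-seq cuts DNA where it is free of nucleosomes, at promoters and at enhancers. Enhancers of ECs are bound by transcription factors of the ETS family, among them ERG, together with GATA, SOX and forkhead factors, and each EC type of the lung, from capillaries to arteries and veins, opens its own set. Promoters of housekeeping genes are open in nearly every cell, while distal elements differ more between cell states.

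The sorted cells carried the promoter peaks of ECs. Cdh5, Kdr, Tie1, Erg and Cldn5 had a promoter peak among the strongest in 18 of 18 lists and Pecam1 in 16. The promoter of Tek, the angiopoietin receptor, held one in all 5 Young Sham lists but in only 1 Young Bleo, 2 Aged Sham and 1 of the Aged Bleo lists, and in 14 of 18 when all peaks counted. No list had one at the leukocyte genes Ptprc, Cd3e, Csf1r and Spi1, at the epithelial genes Epcam, Sftpc, Cdh1 and Nkx2-1, or at Col1a1, Pdgfrb, Acta2 and Tcf21 of fibroblasts and mural cells, while Pdgfra had one in 17. The study's methods name female and male mice. The promoters of the chromosome Y genes Eif2s3y, Uty and Ddx3y held a strong peak in 18 of 18 lists and that of Kdm5d in 1. The promoter of Xist held a strong peak in none, and the sex of each mouse was not assigned. Lists held 21050 to 40883 nuclear peaks. They give no read totals, so depth was read from the lowest background coverage, which lay between 1.02 and 1.78 fragments and was lowest in Aged Sham 1 and Aged Sham 3.

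The sequences below show what such elements look like. Printed are 200 bp on the plus strand of GRCm38 (mm10, from RefSeq) around the summit of the strongest peak, named by the gene with the nearest transcription start site (TSS). The first 8 are those with the ERG core CAGGAAG that stand first when regions are ordered by the number of Young Sham samples and then by the fewest other samples with a peak. The last, at the immediate early gene Nr4a3, is 1 of 2 windows at listed genes with the core, the other being that of Sox17, which is not printed. Capitals mark the core on either strand.
Ndufaf5, chr2:140249912-140250111: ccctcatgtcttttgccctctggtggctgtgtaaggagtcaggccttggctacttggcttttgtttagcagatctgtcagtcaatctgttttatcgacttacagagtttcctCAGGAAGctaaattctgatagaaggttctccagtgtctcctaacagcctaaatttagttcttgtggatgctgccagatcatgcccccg
Gm27162, chr9:32926051-32926250: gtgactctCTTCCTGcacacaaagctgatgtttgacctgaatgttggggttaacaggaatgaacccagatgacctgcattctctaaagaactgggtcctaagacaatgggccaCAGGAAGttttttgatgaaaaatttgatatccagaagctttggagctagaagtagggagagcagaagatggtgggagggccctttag
Gnai3, chr3:108132554-108132753: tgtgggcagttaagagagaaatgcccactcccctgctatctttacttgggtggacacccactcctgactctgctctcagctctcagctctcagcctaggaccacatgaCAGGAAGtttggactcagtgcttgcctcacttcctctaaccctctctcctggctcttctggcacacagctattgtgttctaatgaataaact
Glis1, chr4:107535186-107535385: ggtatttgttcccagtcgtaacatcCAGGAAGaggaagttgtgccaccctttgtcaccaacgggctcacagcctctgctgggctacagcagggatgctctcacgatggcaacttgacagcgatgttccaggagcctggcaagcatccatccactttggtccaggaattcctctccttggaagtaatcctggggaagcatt
2700081O15Rik, chr19:7400719-7400918: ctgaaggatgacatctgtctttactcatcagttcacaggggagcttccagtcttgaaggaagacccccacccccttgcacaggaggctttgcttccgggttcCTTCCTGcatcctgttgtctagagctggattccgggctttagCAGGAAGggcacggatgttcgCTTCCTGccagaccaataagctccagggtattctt
Olfr1402, chr3:97419534-97419733: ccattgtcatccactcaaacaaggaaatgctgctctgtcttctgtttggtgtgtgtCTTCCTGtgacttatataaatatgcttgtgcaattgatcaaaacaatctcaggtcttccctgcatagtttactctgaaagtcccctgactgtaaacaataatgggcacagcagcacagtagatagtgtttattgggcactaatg
Klf3, chr5:64751322-64751521: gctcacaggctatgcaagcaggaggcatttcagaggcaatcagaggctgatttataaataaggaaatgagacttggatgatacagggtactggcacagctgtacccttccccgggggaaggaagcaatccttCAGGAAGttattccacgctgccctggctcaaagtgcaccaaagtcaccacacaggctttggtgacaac
Filip1l, chr16:57543323-57543522: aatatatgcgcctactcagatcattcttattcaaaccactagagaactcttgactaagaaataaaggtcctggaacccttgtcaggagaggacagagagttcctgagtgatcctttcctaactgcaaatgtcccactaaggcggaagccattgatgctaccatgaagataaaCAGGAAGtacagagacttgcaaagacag
Nr4a3, chr4:48076771-48076970: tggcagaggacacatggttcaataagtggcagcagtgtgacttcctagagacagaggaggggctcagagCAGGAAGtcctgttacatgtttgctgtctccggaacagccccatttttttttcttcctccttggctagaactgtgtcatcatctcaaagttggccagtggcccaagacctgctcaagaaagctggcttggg

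For comparison, the windows at 3 genes that the study names held no exact match to CAGGAAG. They lie in an intron of Evl, which encodes an Ena/VASP regulator of actin, upstream of Plvap, which encodes the protein of endothelial diaphragms, and in an intron of Kit, the stem cell factor receptor that marks general capillary ECs. The study found ERG motifs by a de novo search, in regions near Plvap and Kit among others. The measures differ, so a window without these exact letters is not shown to lack an ERG site.
Evl, chr12:108583879-108584078: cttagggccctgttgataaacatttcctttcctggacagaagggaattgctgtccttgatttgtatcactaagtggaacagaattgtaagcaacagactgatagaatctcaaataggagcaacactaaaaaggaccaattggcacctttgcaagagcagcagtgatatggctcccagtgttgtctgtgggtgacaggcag
Plvap, chr8:71516889-71517088: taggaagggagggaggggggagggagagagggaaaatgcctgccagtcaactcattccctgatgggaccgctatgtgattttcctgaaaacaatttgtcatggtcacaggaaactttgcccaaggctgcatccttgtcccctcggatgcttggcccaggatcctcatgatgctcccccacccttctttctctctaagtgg
Kit, chr5:75575696-75575895: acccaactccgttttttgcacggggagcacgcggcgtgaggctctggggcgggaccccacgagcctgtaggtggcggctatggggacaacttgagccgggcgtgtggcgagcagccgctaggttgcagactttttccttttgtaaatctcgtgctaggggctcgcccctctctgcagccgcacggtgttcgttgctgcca

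The 310 regions were spread over the Young Sham mice unevenly. Peaks among the strongest were present in 271, 284, 281, 282 and 224 of them in Young Sham 1 to 5. They were present in 16, 27, 29 and 47 in Young Bleo 1 to 4, in 49, 33, 59 and 32 in Aged Sham 1 to 4, and in 28, 23, 54, 59 and 53 in Aged Bleo 1 to 5. Of all 27854 regions, 71.4% to 74.8% had such a peak in each list. The rule fixes that these groups stand apart, but not the order within them, where Young Sham 5 was the lowest of its group and Young Bleo 4, the other lane 8 sample, the highest of its own. Of the regions, 102 were called in 5 of 5 Young Sham mice and 208 in 4, and the mouse that lacked it was Young Sham 5 in 86 cases against 26 to 39 for each of the other 4 mice. In 76 of those 86 a weaker peak was present in the full list of Young Sham 5.

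Each limit alone selected more. Regions with 4 or 5 Young Sham peaks and at most 1 of 4 Young Bleo numbered 1161 (4.17% of all), those with at most 1 of 4 Aged Sham 722 (2.59%), and those with at most 2 of 5 Aged Bleo 1479 (5.31%). In the final set 191 regions had no Young Bleo peak and 119 had 1, which was in Young Bleo 4 for 47 of them. For Aged Sham, 137 had none and 173 had 1, and for Aged Bleo 150 had none, 103 had 1 and 57 had 2. Just outside the limits lay 345 regions with 3 of 5 Young Sham samples, 96 with 2 Young Bleo, 186 in 2 Aged Sham and 26 in 3 Aged Bleo mice, each meeting the other limits. Only 60 of the 310 had no strong peak in any of the 13 other samples.

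**Figure D1:**
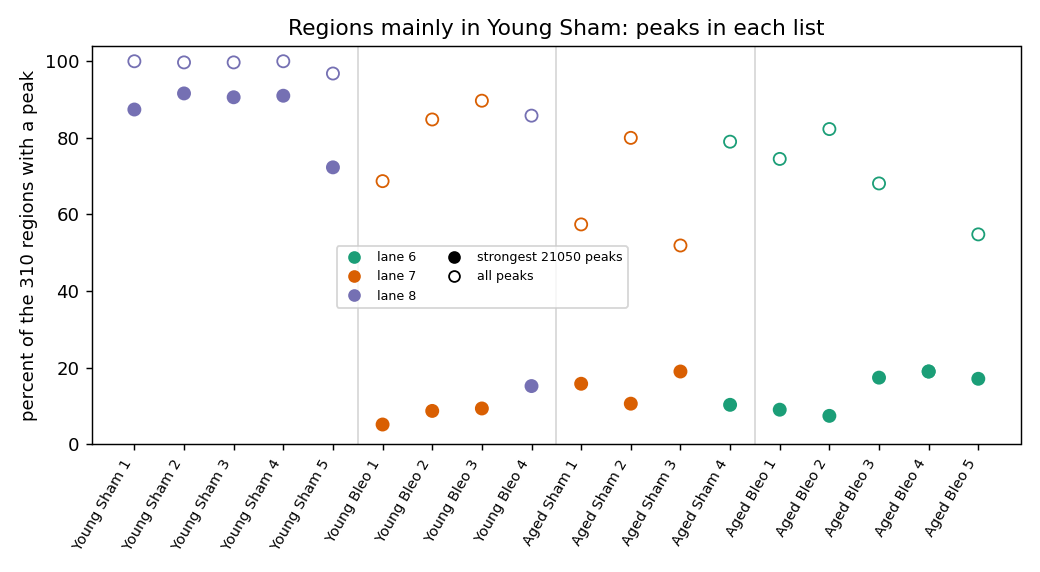
Percent of the 310 regions with a peak in each of the 18 lists (y axis), among the strongest 21050 peaks (filled circles) and among all peaks (open circles), coloured by sequencing lane. Filled circles lie between 72.3% and 91.6% in Young Sham and between 5.16% and 19% elsewhere, as the rule requires, while open circles outside Young Sham reach 89.7%.

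Most of these regions were not without a peak in the other mice, although they lacked one more often than regions in general, as the limits favour. When all peaks of each list counted, Young Sham 1 to 5 held a peak in 310, 309, 309, 310 and 300 of them. Young Bleo 1 to 4 held one in 213, 263, 278 and 266, Aged Sham 1 to 4 in 178, 248, 161 and 245, and Aged Bleo 1 to 5 in 231, 255, 211, 59 and 170. These are 68.7% to 89.7% of the 310 in Young Bleo lists, where 94.9% to 97.7% of all regions had a peak, 51.9% to 80% in Aged Sham, against 82.7% to 94.0%, and 19% to 82.3% in Aged Bleo, against 71.4% to 97.5%. The median region had a peak in 10 of the 13 other samples, 257 (82.9%) had one in 7 or more, 11 had one in all 13 and 2 had none. Aged Bleo 4 has no peaks beyond the 21050 kept, so nothing weaker could be seen there. The label of regions open mainly in 2-month sham is therefore not borne out by the full lists, under which only 7 of the 310 would meet the limits. They are regions of middling peaks, which fall within the kept ranks mainly in Young Sham.

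Their ranks lay near the limit of what was kept, behind those of regions in general, whose median rank in Young Sham lists was 12746.5 to 13572.5. The median over the 310 regions of the median Young Sham rank was 18541.5, counting from 1 for the strongest peak, with a range of 12839 to 20900. For 300 regions (96.8%) it lay beyond rank 15000, where 28.7% of the kept ranks fall. The median rank of the peaks present was 18083 to 19346 in Young Sham lists, 24128 to 26902 in Young Bleo, 21546 to 25070.5 in Aged Sham, and 22463 to 27759 in Aged Bleo 1, 2, 3 and 5. These medians leave out absent peaks, and a short list has no late ranks. With absent peaks placed last the medians were 18100 to 19500 in Young Sham, 24800 to 29000 in Young Bleo, 25000 to 26700 in Aged Sham and 26000 to 30100 in the same 4 Aged Bleo lists. None of the 310 regions had a median Young Sham rank in the strongest 10000. With 15000 peaks kept per list the same limits gave 200 regions, which include 6 of the 310, and with all peaks kept they gave 814, which include 7 of the 310. The identity of the regions thus depends on the number of peaks kept.

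**Figure D2:**
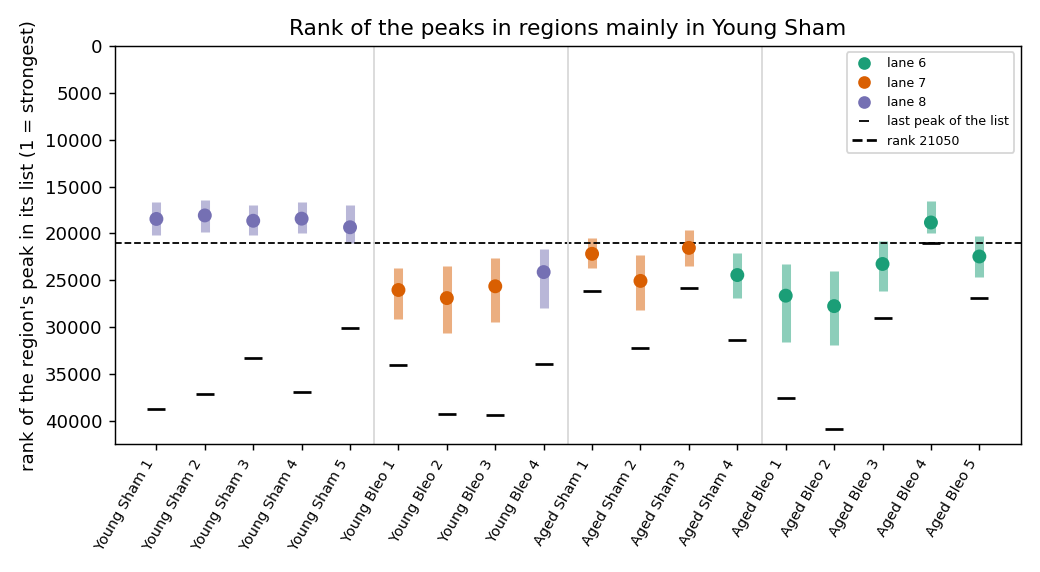
Rank of the peak in each region that has one, by list (y axis, 1 is the strongest, at the top). Circles are medians, bars span the quartiles, short lines mark the last peak of the list, and the dashed line is rank 21050. Medians lie at 18083 to 19346 in Young Sham, above the dashed line, and below it in every other list except Aged Bleo 4, which ends there.

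Peak height and fragment number make up the −log10 p on which the regions were chosen. Their order between groups is thus favoured, though not fixed, by the choice, and only their size is described here. Fold enrichment over the local background of the same library had a median of 8.04 to 10.8 in Young Sham lists (9.52 ± 1.15, SD of the 5 medians) over the peaks present. It was 6.34 to 7.71 in Young Bleo, 6.06 to 6.47 in Aged Sham and 5.78 to 7.48 in Aged Bleo. The fragments behind a summit were few, their median being 20 to 33 in Young Sham, 18 to 22 in Young Bleo, 12 to 16 in Aged Sham and 11 to 18 in Aged Bleo. Background coverage was 1.56 ± 0.238 (SD, n = 5) in Young Sham, 1.65 ± 0.101 (n = 4) in Young Bleo, 1.16 ± 0.198 (n = 4) in Aged Sham and 1.21 ± 0.22 (n = 5) in Aged Bleo, so the aged groups were shallower on average, although Aged Bleo 1 (1.60) and Aged Sham 4 (1.44) were above Young Sham 1 (1.26) and Young Sham 5 (1.36). The part of depth in the lower aged values was not tested.

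To describe each list by regions that it did not itself help to choose, each sample was left out in turn, regions were merged and chosen again from the other 17 lists, and the percent of the chosen regions with a strong peak in the left-out list was taken as its held-out share. The shares were 61.2%, 69.1%, 61.9%, 62.8% and 46.4% in Young Sham 1 to 5. They were 15.8%, 20.5%, 22.8% and 27.5% in Young Bleo 1 to 4, 37.7%, 29.3%, 42.0% and 24.5% in Aged Sham 1 to 4, and 12.7%, 9.46%, 22.7%, 23.5% and 21.9% in Aged Bleo 1 to 5. Every Young Sham value was above every other value, although Young Sham 5 was close to Aged Sham 3. When all peaks of the left-out list counted, Young Bleo 3 (91.2%) was above Young Sham 5 (90.9%), and the difference between the means of Young Sham and Young Bleo was 13.3 percentage points.

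The mean held-out share was 60.3% ± 8.38 (SD, n = 5) in Young Sham. It was 21.7% ± 4.9 (n = 4) in Young Bleo, a difference of 38.6 percentage points. In Aged Sham it was 33.4% ± 7.95 (n = 4), a difference of 26.9 points, and in Aged Bleo 18.0% ± 6.48 (n = 5), a difference of 42.2 points. The 3 comparisons share the Young Sham samples, the shares rest on overlapping sets of 317 to 483 regions, and samples of the same lane remained among the lists that chose. The group and the limits were set with all 18 lists known, and each list helped to choose the regions for the others, so the shares are not independent values and are given as a description, with no test. When regions were chosen from all peaks rather than the strongest, the difference from Young Bleo was 29.6 points.

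The held-out shares can be set beside those of other regions with a strong peak in as many samples, 4 to 9 of 18. These are regions that did not meet the limits, so the rule shaped their shares too. The side on which a group falls is therefore no test. Such regions held a peak in 25.8% to 26.8% of cases in Young Sham lists, in 37.5% to 42.0% in Young Bleo, in 31.4% to 37.2% in Aged Sham and in 32.2% to 41.7% in Aged Bleo. Held-out shares were above these values in all 5 Young Sham samples and below them in all 4 Young Bleo and all 5 Aged Bleo samples. In Aged Sham they were above them in samples 1 and 3 and below them in samples 2 and 4. When all peaks of the left-out list counted for both kinds of region, every sample stayed on the same side. Aged Sham 1 then had 68.5% against 60.7% and Aged Sham 3 had 65.6% against 55.0%. Aged Sham 1 and 3 have the lowest background coverage of all lists (1.02 each), and the part of that in their values was not tested. Young Bleo 4, from lane 8, had a share of 27.5% against 19.7% ± 3.59 (SD, n = 3) in the Young Bleo samples of lane 7, and lay below all 5 Young Sham samples of its own lane.

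**Figure D3:**
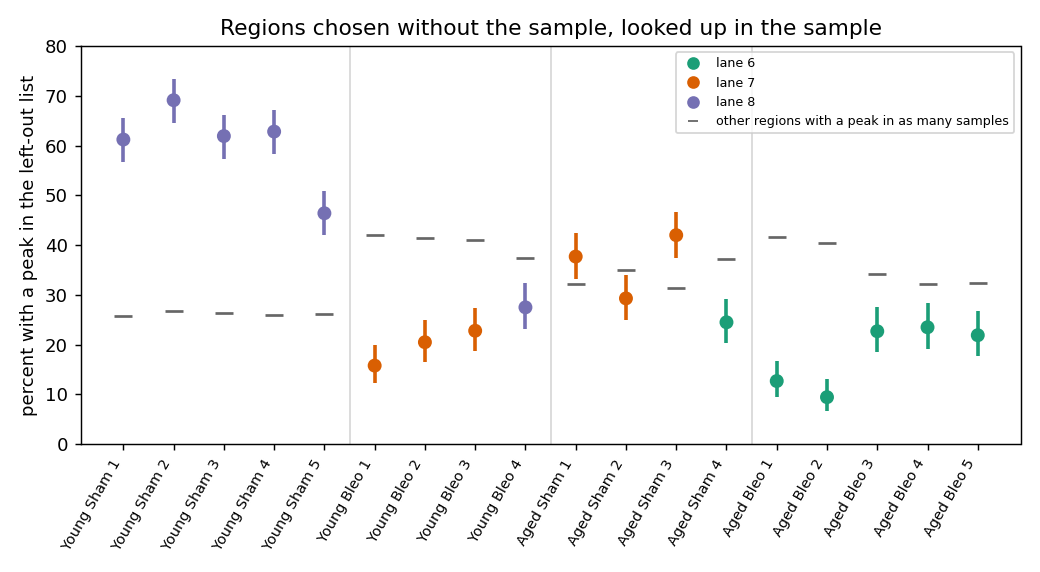
Held-out share of each sample (y axis, percent of the regions chosen without that sample that have a strong peak in it), coloured by lane, with Wilson 95% intervals that cover counting error only. Grey lines are other regions with a peak in as many samples, which did not meet the limits. Young Sham samples sit at 46.4% to 69.1%, and the other 13 samples at 9.46% to 42.0%.

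The 310 regions were mostly distal. By the position of the midpoint, 143 (46.1%) were intronic, 130 (41.9%) intergenic, 25 (8.06%) in a promoter, 8 (2.58%) in a UTR and 4 (1.29%) in another exon. Promoters, taken as the stretch between 1000 bp before and 100 bp after a TSS, made up 32.1% of all regions, 9.51% of the other regions with a peak in as many samples, and 4.68% of 662 regions chosen by mirrored limits for Young Bleo. Mirrored limits for Aged Sham gave 255 regions with 25.5% in promoters. The share of promoters among the chosen regions was 4.11% when peaks were ranked by fold enrichment and 13.5% when promoters reached 2 kb to either side of a TSS. The median distance to the nearest TSS was 20434.5 bp, against 19672 bp in those others and 6098 bp over all regions, and 35 regions (11.3%) lay over 100000 bp away. Median width was 437 bp against 417 bp and 561 bp, and median GC content 50.5% against 51.0% and 56.0%.

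The promoters of the nearest genes were often open in every list. Of the 285 regions outside promoters, 149 (52.3%) had a nearest gene whose promoter carried a strong peak in all 18 samples, against 53.2% of all distal regions 48.9% of distal regions with a peak in as many samples and 43.3% of the distal regions of the mirrored Young Bleo set. With promoters included, the share was 49.0% of the 310 against 63.5% of all regions. The nearest TSS belonged to 301 genes. No gene was nearest to 3 or more regions and 9 were nearest to 2, Ets1 among them. Only 16 regions lay within 50000 bp of another of the set. Chromosome 3 held 29 of them (2.03% of its regions), chromosome 6 held 31 (1.95%), chromosome X 12 (1.75%), chromosome 11 held 6 (0.292%) and chromosome Y none of 24.

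The 12 regions first in the order lay at genes of varied function. The first was an intronic element at chr2:140249826-140250196, assigned to Ndufaf5, a mitochondrial complex I assembly factor, 79365 bp downstream of its TSS. It ranked 16106, 20880, 18502, 19441 and 17525 in Young Sham 1 to 5 and had no peak of any strength in the 13 other lists. Its fold enrichment was 13.6, 9.28, 9.35, 9.92 and 9.31, on 21 to 31 fragments at the summit. It was the only region with strong peaks in 5 of 5 Young Sham samples and no peak at all elsewhere. The other region without a peak in the 13 lists, at 4930517G24Rik and named after its values were seen, had a strong peak in 4 of 5.

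An intronic element of Glra2, a glycine receptor subunit, at chrX:165290215-165290833, ranked 15890, 20557, 14160, 12443 and 17049 in Young Sham 1 to 5. Elsewhere it had 2 weaker peaks, at rank 33160 in Young Bleo 4 and 22268 in Aged Sham 1. An intronic element of Ttll5, a tubulin-modifying enzyme, at chr12:85830712-85831100 had ranks of 15852 to 20871 in Young Sham and peaks at ranks 22627 to 25788 in 4 other samples. That no other list ranked as high follows from the order, which puts regions without a strong peak elsewhere first.

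The next regions were present in more of the full lists. The element at 1700020G17Rik (chr10:110879328-110879789) had a weaker peak in 5 of the 13 other samples, that 184974 bp from the TSS of Bcor, a transcriptional corepressor (chrX:11895359-11895798), in 5, and that in Gm27162 (chr9:32925822-32926395) in 6. The elements at Gnai3, an inhibitory G protein subunit (chr3:108132494-108132878), and Glis1, a zinc finger factor (chr4:107535077-107535530), had one in 8 each, that at 2700081O15Rik (chr19:7400608-7400975) in 9 and that at Rpia, an enzyme of the pentose phosphate pathway (chr6:70811866-70812277), in 10. None of these had a strong peak outside Young Sham. For Rpia the Young Sham ranks were 18630, 17072, 18678, 18542 and 16810. In the other lists they ran from 21078 in Young Bleo 3 to 31342 in Aged Bleo 2, so 10 lists outside Young Sham had a peak there, all beyond the kept ranks as the rule and the order require.

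In total 17 regions were nearest to 1 of the 372 genes in 24 lists of EC genes, signalling pathways, other cell types and genes the study names. That was 5.48% of the set, against 3.90% of all regions and 4.17% of the others with a peak in as many samples. The mirrored Young Bleo set had 5.59%. No region was nearest to a gene of the lists for epithelial cells, leukocytes, fibroblasts and mural cells, mesothelial and neural cells or blood cells, to which 0.0395%, 0.018%, 0.0431%, 0.00359% and 0.018% of all regions belonged. The lists of aerocyte and lymphatic markers, BMP and TGF-beta signalling, FGF and PDGF signalling, vascular basement membrane, interferon response, glucocorticoid and circadian genes, cell cycle and senescence, and hypoxia also had none, and each of these held between 0.0287% and 0.312% of all regions.

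Of the 31 endothelial transcription factors listed, 4 had a region nearby, 5 regions in all (1.61% of the set, against 0.646% of all regions and 0.602% of those with a peak in as many samples). In the mirrored Young Bleo set the share was 1.21%. Ets1, an ETS family factor, had 2. The first, 65594 bp downstream of the nearest TSS at chr9:32761403-32761859, ranked 18574, 14154, 16189, 19766 and 16842 in Young Sham 1 to 5, and elsewhere 16375 in Aged Bleo 2 and 21868 to 38623 in 7 other lists. The second, in an intron 21843 bp upstream of the nearest TSS at chr9:32674021-32674366, ranked 18248 to 19727 in Young Sham 1 to 4, 27036 in Young Sham 5 and 21022 in Young Bleo 2. Both windows held a SOX and a GATA motif and no ERG core. The groups overlapped among strong peaks in the first and, through the weaker peak of Young Sham 5, in the second.

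The region at Ets2, another ETS factor, at chr16:95750249-95750673 ranked 18055, 18129, 17205, 16098 and 15886 in Young Sham 1 to 5 and had a peak in all 13 other lists, from rank 16240 in Aged Bleo 5 to 30202 in Aged Bleo 2. That 3092 bp upstream of Gata2, a GATA factor, at chr6:88190552-88191046 ranked 16597 to 23651 in Young Sham. Its 4 Young Bleo ranks of 32251, 37306, 32751 and 29052 lay behind all of these, as the limits favour. The Aged Sham ranks of 25858, 24037, 23462 and 21525 overlapped with those of Young Sham. A short list has no late ranks, and those of Aged Sham 1 and 3 ended at 26148 and 25793, before all 4 Young Bleo ranks. The Gata2 window held a GATA motif. Sox17, a factor of arterial identity, had a region in its UTR at chr1:4496358-4496767 with Young Sham ranks of 19919, 19687, 18287, 20388 and 21743. It had a peak in all 4 Young Bleo lists (21973 to 29538), in Aged Sham 4 alone of its group, and in Aged Bleo 5 at rank 20234.

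General capillary markers had 2 regions (0.645%, against 0.244% of all regions and 0.28% of those of like prevalence), and arterial and venous markers had 4, that of Sox17 included (1.29% against 0.215% and 0.172%). Endothelial identity genes had 1 (0.323% against 0.416% and 0.516%), as did VEGF, Tie, Notch and apelin signalling (0.323% against 0.337% and 0.452%), shear stress and nitric oxide (0.323% against 0.273% and 0.28%), immediate early and stress genes (0.323% against 0.302% and 0.151%) and inflammatory genes (0.323% against 0.162% and 0.258%). In the mirrored Young Bleo set the shares of these lists, in the same order, were 0.151%, 0.151%, 0.755%, 0.755%, 0.453%, 0% and 0.151%. No test was made of these small counts. The Kit element, 767 bp inside the gene at chr5:75575547-75575969, ranked 19610, 15572, 17350, 18104 and 21402 in Young Sham 1 to 5. Young Bleo ranks were 26333, 31389, 24795 and 24801, Aged Sham ranks 21402, 27193 and 21659 in samples 1, 2 and 4, and Aged Bleo ranks 30125, 26540 and 19135 in samples 1, 2 and 5. All Young Bleo values were behind all Young Sham values, as the limits favour. Young Sham 5 and Aged Sham 1 had the same rank, but in lists of 30073 and 26148 peaks, so the place within the list differed. On the scale of fold enrichment the Kit peak was 7.06, 7.69, 6.64, 6.83 and 5.70 in Young Sham and 5.32, 4.78, 6.44 and 5.43 in Young Bleo, which overlap. The Kit promoter itself held a strong peak in all 18 samples.

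The Plvap element, 5300 bp upstream at chr8:71516831-71517307, ranked 16218, 15805, 18156, 14671 and 17881 in Young Sham. Strong peaks elsewhere were those of Young Bleo 3 (19695) and Aged Sham 2 (18800), and none was present in Aged Sham 1 and 3 or in Aged Bleo 3, 4 and 5. The element assigned to Evl at chr12:108583781-108584141 was among the most restricted of the named genes. It ranked 17202, 18787, 16439, 16324 and 19252 in Young Sham and had peaks in 3 other lists, at rank 35402 in Young Bleo 3, 29557 in Aged Sham 2 and 18135 in Aged Sham 3. Evl, Kit and Plvap are on a list of 17 genes that the study names. Genes on this list were nearest to 0.968% of the set, against 0.284% of all regions and 0.323% of those of like prevalence. The mirrored Young Bleo set had 0.906%. The presence of Evl, Kit and Plvap is therefore no independent evidence of direction. For Evl the study's text gives expression, elevated in injured young ECs, and reports increased chromatin accessibility there among cytoskeleton and migration genes. For Plvap and Kit the study reports nearby regions with ERG motifs that were less accessible in aged lung ECs. Whether those regions are the elements given here was not checked.

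The region 19126 bp upstream of Vcam1, the leukocyte adhesion molecule of veins and inflamed ECs, had a strong peak in 5 Young Sham, 1 Aged Sham and 2 Aged Bleo mice. At chr3:116148566-116149061 it ranked 13942, 13311, 11346, 13494 and 13495 in Young Sham 1 to 5, with fold enrichments of 15.2, 14.5, 15.4, 13.6 and 12.7. Young Bleo 2 to 4 had fold enrichments of 6.81, 5.60 and 5.50 and Young Bleo 1 no peak. Aged Sham 1 to 4 had 7.92, 5.08, 5.45 and 6.55, and Aged Bleo 1, 2, 3 and 5 had 6.16, 7.48, 9.49 and 6.54. The region was chosen on these peaks, and folds are not scaled between libraries, so the gap is no test. The Vcam1 promoter had no strong peak in any of the 18 samples.

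Other vessel genes followed with smaller gaps. An intronic element of Angpt2, a ligand of Tek, at chr8:18694224-18694904 ranked 12507 to 18430 in Young Sham and 19421 to 34173 in the 12 other lists with a peak. The element at Gja4, an arterial gap junction gene (chr4:127319633-127320048), ranked 16340 to 21051 in Young Sham and 16895 in Young Bleo 2. That in Bmx, a kinase gene of arterial ECs (chrX:164233364-164233803), ranked 17516 to 17844 in Young Sham 1 to 4, 23722 in Young Sham 5 and 19873 in Young Bleo 4. That in Nr4a3, whose sequence is given above, ranked 16686 to 21498 in Young Sham and 16436 in Aged Sham 3. In the last 3 the groups overlapped.

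Junction genes were represented by 3 regions (0.968%, against 0.305% of all regions and 0.28% of those of like prevalence). The mirrored Young Bleo set had 0.453%. An intronic element of Ctnnd1, a catenin that binds VE-cadherin, at chr2:84647691-84648158 ranked 18015, 19077, 15546 and 17203 in Young Sham 1 to 4. It had no peak in Young Sham 5 and weaker peaks in 4 other lists, at ranks 23973 to 32641. The region upstream of Ocln, a tight junction protein (chr13:100565530-100566035), ranked 17984 to 20872 in Young Sham 1 to 4 and 26385 in Young Sham 5, against 24563 to 33631 in the 5 others with a peak. The region at Tjp1, a tight junction scaffold (chr7:65375224-65375485), ranked 16305 to 22812 in Young Sham and had strong peaks in Young Bleo 3, Aged Sham 3, Aged Bleo 2 and Aged Bleo 5. The last of the 17, in an intron of the mechanosensitive channel gene Piezo2, had strong peaks in Young Sham 2 to 5 and in Aged Bleo 4.

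**Figure D4:**
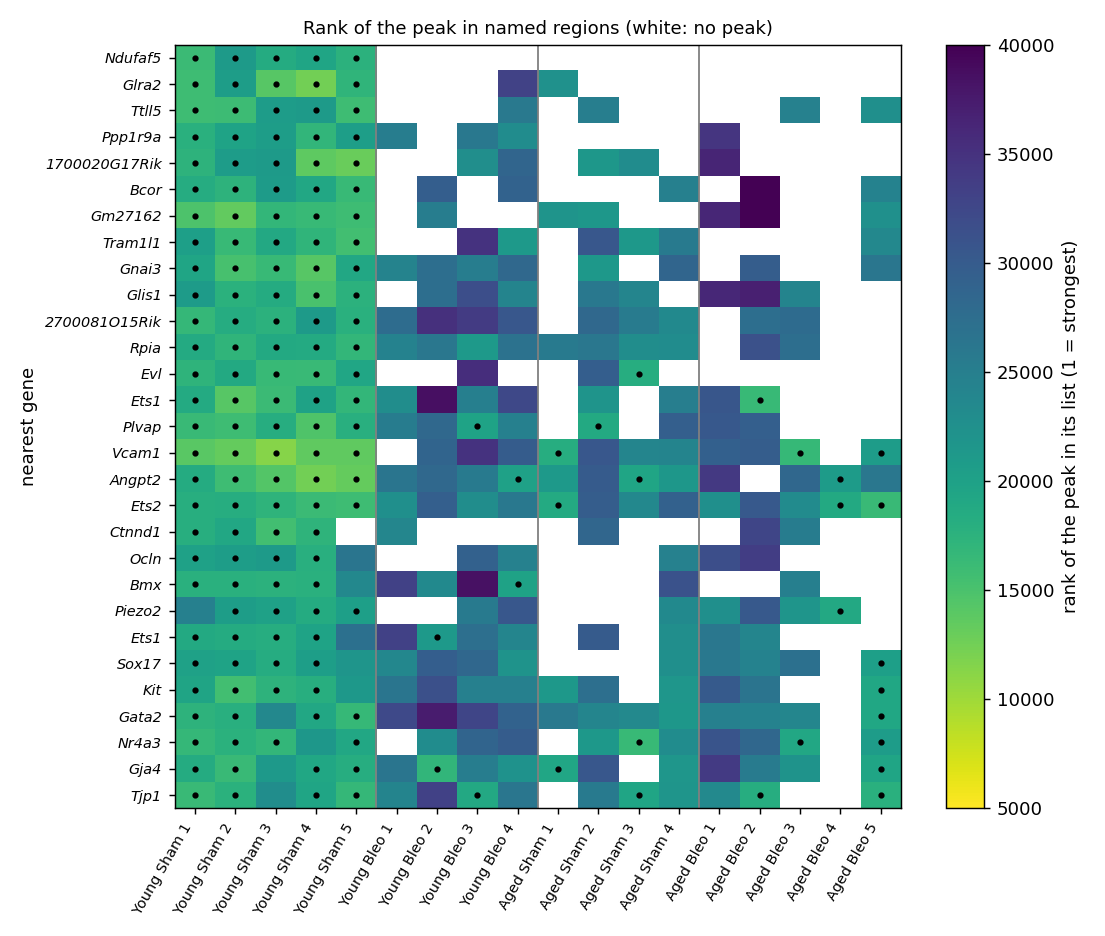
Rank of the peak in each list (columns) for the 12 regions that stand first in the order and the 17 at listed genes (rows, named by the nearest gene). Colour gives the rank, with lighter meaning stronger, white is no peak, and dots mark ranks within the strongest 21050. The Ndufaf5 row is white outside Young Sham, whereas the Ets2 row has a peak in all 18 columns.

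Of the 25 regions in promoters, the 8 first in the order were at Ppp1r9a, Tram1l1, Ildr2, Adh1, Rnasek, E230016M11Rik, Rbm20 and Ncald. The promoter of Ppp1r9a, which encodes the actin-binding scaffold neurabin, at chr6:4902774-4903883 was the widest at 1110 bp. It ranked 17834, 19682, 20471, 16986 and 20428 in Young Sham and 22925 to 34627 in Young Bleo 1, 3 and 4 and Aged Bleo 1, with no peak in the other 9 lists. Tram1l1 (chr3:124320788-124321340) ranked 15584 to 20294 in Young Sham and 21095 to 34811 in 6 other lists. The promoters of Adh1, an alcohol dehydrogenase gene (chr3:138277387-138277852), and of Ildr2 (chr1:166253911-166254445) had a peak in 7 and 5 of the 13 other lists. Those of Rnasek (chr11:70239811-70240170), E230016M11Rik (chr6:67036436-67036773), the splicing factor gene Rbm20 (chr19:53676704-53677469) and the calcium sensor gene Ncald (chr15:37459168-37459623) had one in 7, 9, 9 and 11.

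DNA motifs were counted by exact letters on both strands of the 200 bp windows, and a match is not a bound site. The study searched for motifs de novo, so its shares are not comparable with these. The ERG core CAGGAAG was present in 79 of 310 windows (25.5%, Wilson 95% interval 21% to 30.6%), against 19.3% of all regions and 23% of the others with a peak in as many samples. Outside promoters the shares were 26.3%, 23.8% and 24.2%. Intervals treat regions as independent and cover counting error only.

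The forkhead letters TGTTTAC were in 7.42% of the windows (4.99% to 10.9%), against 4.54% of the others with a peak in as many samples, 4.16% of all regions and 3.02% of those of the mirrored Young Bleo set. The AP-1 letters TGANTCA were in 6.77% (4.47% to 10.1%) against 11.5%, 7.88% and 11.6%. The STAT letters TTCCNGGAA occurred in 1 window (0.323%, 0.057% to 1.80%) against 1.91%, 1.52% and 1.81%. For these 3 of the 16 motifs looked at, the share of regions of like prevalence lay outside the counting interval, below it for forkhead and above it for AP-1 and STAT. In whole regions in place of the windows, the shares were 10.6% against 8.3% for forkhead, 11.3% against 18.6% for AP-1 and 1.29% against 2.86% for STAT. These whole-region shares rest on 33, 35 and 4 of the 310 regions. Counting intervals were computed for the 200 bp windows only, so whether the 3 departures hold in whole regions was not assessed. The regions come from the same 18 libraries and are not replicates, and no test was made.

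The SOX letters ACAATNG were in 13.2% of the windows (9.9% to 17.5%), near the 13.1% of regions of like prevalence, whereas the mirrored Young Bleo set had 23.7%. The GATA letters AGATAAG were in 5.48% against 4.13%, and ACANNNTGT, part of the glucocorticoid receptor element, in 9.35% against 6.88%, both with the second value inside the interval of the first. CTCF matched in 6.13% against 8.75%, KLF (GGGTGTG) in 6.13% against 8.22% and NF-kB (GGGNNTTCC) in 3.87% against 4.71%. The E-box CAGCTG was in 15.8% against 15.4%, the HIF letters ACGTG in 14.2% against 12.6%, RUNX (TGTGGTT) in 3.55% against 4.02%, TEAD (ACATTCC) in 2.90% against 3.31%, MEF2 (TATTTTTA) in 1.29% against 2.24% and CRE (TGACGTCA) in 1.61% against 0.774%.

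**Figure D5:**
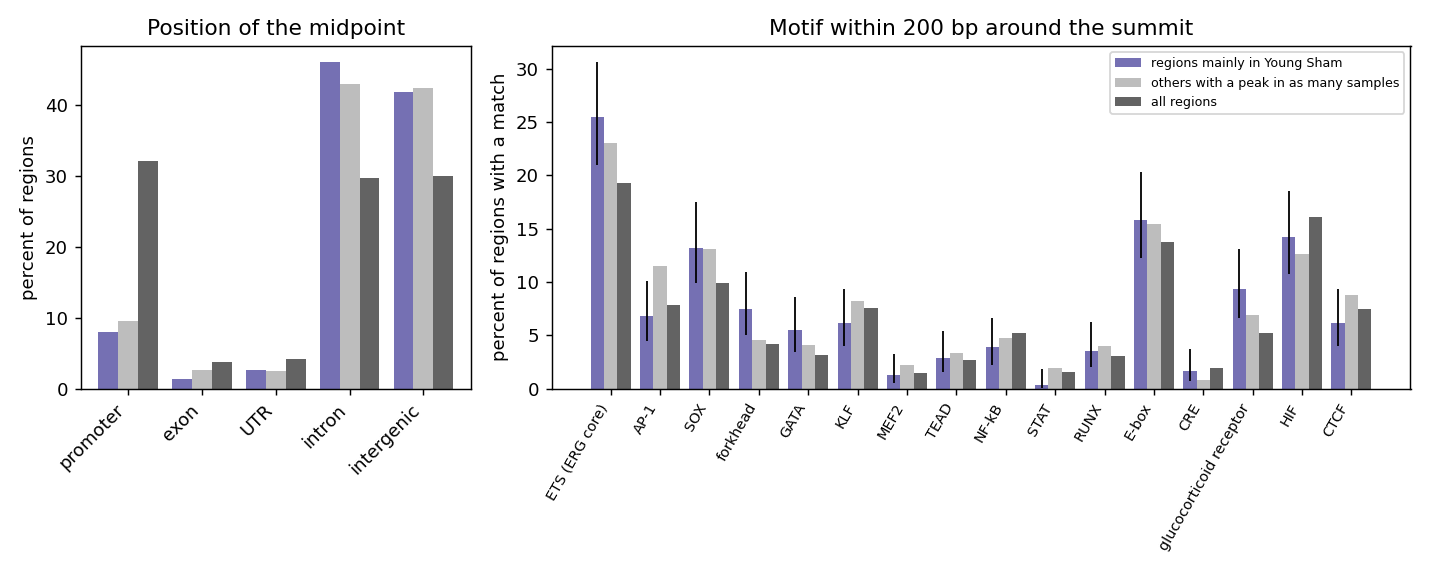
Left, percent of regions by position of the midpoint; right, percent of 200 bp windows with each motif, for the 310 regions, other regions with a peak in as many samples and all regions. Black lines are Wilson 95% intervals of the 310 regions. Promoters make up 8.06% of the 310 regions and 32.1% of all regions, and the ERG core lies in 25.5% and 19.3%.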

How the data were processed

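Groups and replicate numbers follow the sample labels, and lanes a code in the list names. According to the study's methods and the submitters' processing notes, Omni-ATAC-seq read pairs were aligned to mm10 (BWA), duplicates were discarded (Picard) and MACS2 was run on every sample on its own (FDR 1%). The deposited fold enrichment is a ratio of fragments at the summit to the background near it in that library. Both −log10 columns, of p and of q, were deposited as MACS2 wrote them for that library, and the deposited score, a rescaled −log10 q, was not used. None is scaled between libraries, so peaks were ranked within a list, and fold enrichments set side by side describe each library and are not compared by a test. Peaks outside the nuclear chromosomes (19 in 5 lists) were left out.

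Fragments at a summit and background coverage were solved from fold enrichment and −log10 p (whole to within 0.01 of −log10 p for at least 99.986% of peaks with a −log10 p up to 250.0). A typical peak rested on a median of 25 to 33 fragments, so a lack of a peak does not show closed chromatin. Regions were annotated with 45756 RefSeq transcripts of GRCm38. The 310 regions, the gene lists and the motifs were chosen with earlier results of these data known. Genes are named by 5 rules: the 12 regions first in the order, all at listed genes, genes nearest to 3 or more regions, the first 8 promoters, and the first 8 with an ERG core; 1 further region is marked as named after its values were seen. Held-out shares are described by their group means and SD; exact permutation tests of them (scipy 1.17.1) were run but are not reported, since every list but the left-out 1 chose the regions. When a Young Sham sample was left out, all but 1 of the remaining Young Sham samples had to carry a peak. Alternatives changed the peaks kept, the ranking value, the overlap, the regions, the chromosomes, the limits, the promoter, the motif window and the samples, 1 at a time. The authors' own differential analysis rests on read counts and was not repeated.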

Additional observations from a re-analysis of the deposited data

Results flagged for a closer look

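Of 24 sets of values looked at, Young Sham 5 stood apart from its group in 2. Both count peaks in the 310 regions, which its own strong peaks helped to choose, so no chance rate is set beside them. Young Sham 5 held a strong peak in 224 of the 310 regions against 271 to 284 in the other 4 Young Sham mice, and a peak of any strength in 300 against 309 or 310. Its background coverage was 1.36 against 1.26 to 1.78, and its list the shortest of the group with 30073 peaks. Without it, and with 3 of the 4 Young Sham mice left required, 483 regions were chosen, against 411 to 454 without any other Young Sham mouse. The cause was not tested.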

How the results depend on the processing

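The number of regions depended on how many peaks were kept and on the limits. All peaks gave 814, the 15000 strongest 200, and 5 of 5 Young Sham samples with at most 1 sample of each other group 82. Of the 310 regions 7, 6 and 82 were among these. Leaving out 1 sample at a time gave 317 to 483, with 483 without Young Sham 5. Ranking by fold enrichment gave 316, but only 133 of the 310 were among them.

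All 3 differences in held-out share kept their direction under every alternative run, on regions chosen again for Young Sham each time. The difference from Young Bleo was 29.6 points with all peaks. With same-numbered samples as a replicate block the differences were 42.1 points for Young Bleo, 30.4 for Aged Sham and 42.2 for Aged Bleo. The numbers do not pair the mice: of 25 pairs of same-numbered samples 3 correlated above 0.1, over a range of −0.103 to 0.188. Without 1 sample at a time, the differences were 36.4 to 42.1 for Young Bleo, 23.9 to 30.4 for Aged Sham and 40.0 to 45.7 for Aged Bleo. When all peaks of the left-out list counted, they were 13.3, 22.7 and 36.0 points. The promoter share was 4.11% by fold enrichment and 13.5% with 2 kb on either side of a TSS, and the ERG core share 32.3% by fold enrichment and 35.5% in whole regions, where it was 33.6% of all regions and 33.7% of those with a peak in as many samples. Few fragments per peak limit how far absence of a peak can be read.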
